A study of Mus musculus with 2 samples.

Results

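Periostin (Postn), its relative Tgfbi and 3 integrin chains that form receptors for both, Itgav, Itgb3 and Itgb5, were followed in cultured Nestin+ mesenchymal stromal cells. The 5 genes were taken by name from the deposited tables, where each has 1 row, out of 49490 gene symbols in all. The cells came from the heart and from the bone marrow of C57BL/6 mice 7 days old that carry a green fluorescent reporter under Nestin control, and both cultures were at passage 10. Each tissue gave 1 RNA library, so no difference here has a replicate check and no test was possible. The heart culture medium held 20 ng/ml of EGF, 20 ng/ml of bFGF and 4 ng/ml of cardiotrophin-1, while bone marrow cultures had another, previously published medium, so tissue and medium cannot be told apart. The labels do not say how many animals gave each culture. The series title asks about periostin made by heart Nestin+ cells and its action on macrophages in the ischemic heart.

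Periostin and Tgfbi (transforming growth factor beta induced, also called βig-h3) are secreted matricellular proteins built from fasciclin-like FAS1 domains. They bind collagens and fibronectin and are read by cells through integrins. Integrins are pairs of an alpha and a beta chain, and alpha-v joins beta-3 or beta-5 to form receptors that bind both proteins. Tgfbi carries an RGD peptide, the classic integrin recognition motif, which periostin lacks. Both genes are induced by TGF-beta, and in the heart periostin marks developing valves and activated fibroblasts.

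The 250 bases before the RefSeq gene start are shown for the ligand pair, because these relatives had the most unlike ratios of the 5 genes. Both are on the plus strand of GRCm38.p6, at chr3:54360857-54361106 for Postn and chr13:56609336-56609585 for Tgfbi. Capitals mark the motifs searched on both strands, the TATA box TATAAA, the Smad-binding letters CAGAC, the GC box GGGCGG, the AP-1 site TGANTCA and the CCAAT box. On the other strand CAGAC reads GTCTG.
Postn: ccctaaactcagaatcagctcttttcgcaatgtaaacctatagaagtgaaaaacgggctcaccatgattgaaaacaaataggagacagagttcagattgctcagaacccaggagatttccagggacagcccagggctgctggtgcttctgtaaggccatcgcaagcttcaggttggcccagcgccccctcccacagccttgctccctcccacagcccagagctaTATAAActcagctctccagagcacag
Tgfbi: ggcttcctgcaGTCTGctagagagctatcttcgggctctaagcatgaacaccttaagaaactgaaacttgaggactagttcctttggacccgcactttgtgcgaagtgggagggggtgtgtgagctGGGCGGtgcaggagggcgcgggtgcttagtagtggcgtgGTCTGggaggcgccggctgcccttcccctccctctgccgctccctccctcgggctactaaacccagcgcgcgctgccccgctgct
The Postn stretch holds 1 match, a TATA box that starts 26 bases before the gene start. The Tgfbi stretch holds no TATA box match, 1 GC box at 124 bases and 2 matches to the Smad-binding letters at 239 and 85 bases. Of 32817 RefSeq promoter stretches of this length, 12.4% hold TATAAA, 32.7% GGGCGG and 42.2% CAGAC. The AP-1 and CCAAT letters, held by 6.75% and 33.8% of all stretches, had no match in either. Of the 5 genes 4 were matched in the RefSeq promoter table used, Itgb3 being the other. These matches are descriptions of letters and say nothing about factor binding in these cells.

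Of the 5 genes, only Tgfbi differed by 2-fold or more between the libraries, and it was 60.4-fold higher in heart. Postn was abundant and nearly level, and Itgav, Itgb3 and Itgb5 lay within 2-fold. Levels are RPKM, read numbers divided by gene model length and by library size. A gene was counted as higher in a tissue when log2((heart + 1)/(bone marrow + 1)) reached 1 in either direction and the library with more RNA of that gene reached 5 RPKM. All 5 genes reached that floor, 1 was higher in heart and 0 in bone marrow. Over the 7659 genes that reached it, 7.56% were higher in heart, and 9.51% were higher on the bone marrow side. The 6049 genes that reached it in both libraries had a median log2 ratio of -0.14.

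**Figure D1:**
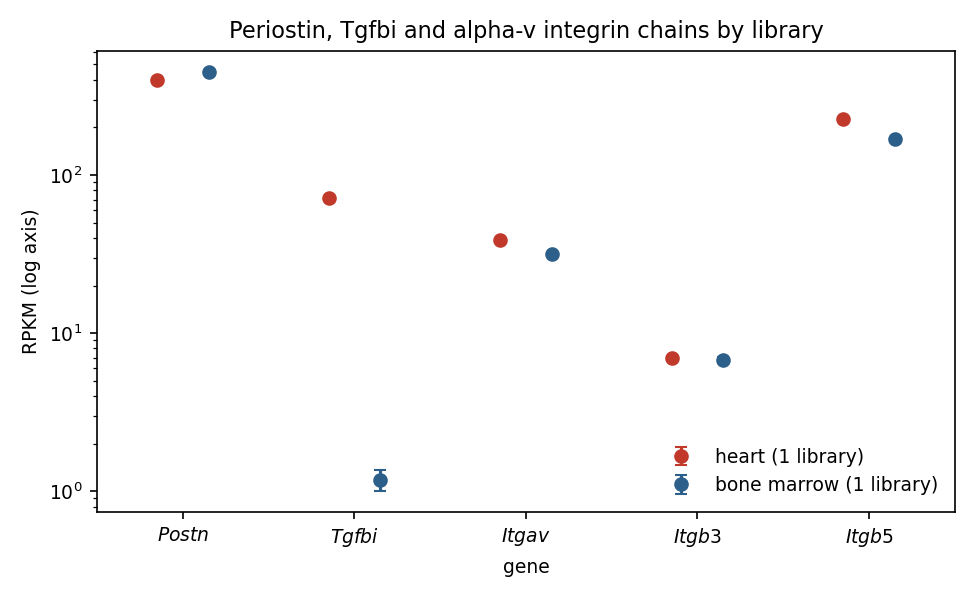
RPKM (log axis) of the 5 genes in the heart (red) and bone marrow (blue) library; bars are 95% Poisson counting intervals, mostly smaller than the points. Tgfbi stands at 71.0 in heart and 1.18 in bone marrow, while the other genes lie close together.

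Postn (chromosome 3, 54361109 to 54391037, plus strand) had 399 RPKM in heart and 448 RPKM in bone marrow. It was the most abundant of the 5 genes in both libraries and ranked 69 of all symbols in heart and 66 in bone marrow. Its log2 ratio was -0.17 as deposited and -0.017 with the median RPKM ratio of all genes set to 1. The interval of its fold, 0.886 to 0.897, rests on 225520 reads in heart and 210625 in bone marrow. It covers counting error only and not the spread between cultures, and gene positions for these genes are on GRCm38.

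Tgfbi (chromosome 13, 56609603 to 56639339, plus strand) had 71.0 RPKM in heart, from 12341 reads, and 1.18 RPKM in bone marrow, from 170 reads. The heart to bone marrow fold of 60.4 had a 95% counting interval of 51.9 to 70.7. Its log2 ratio of 5.05 ranked 21 of 7659 toward heart and 35 in size in either direction. In heart it ranked 500 among all symbols, and in bone marrow 10364. The log2 ratio with a pseudocount of 1 understates this difference, since the bone marrow value is close to 1.

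Itgb5 (chromosome 16, 33829665 to 33949153, plus strand), which encodes beta-5, was the most abundant of the 3 receptor chains in each library. It stood at 226 RPKM in heart and 169 RPKM in bone marrow, with a fold of 1.34 (counting interval 1.32 to 1.36) and a log2 ratio of 0.42. Itgav (chromosome 2, 83724397 to 83806916, plus strand), the gene of the alpha-v chain that both receptors need, stood at 38.9 RPKM in heart and 31.7 RPKM in bone marrow. Its fold was 1.23 (1.20 to 1.25) and its log2 ratio 0.29. Both chains leaned toward heart by less than 2-fold, and their log2 ratios stood 0.55 and 0.42 above the all-gene median. Fewer cells of a type and less RNA per cell cannot be told apart in bulk libraries such as these.

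Itgb3 (chromosome 11, 104608000 to 104670476, plus strand), which encodes beta-3, the partner of alpha-v in the vitronectin receptor, was low in both libraries. It stood at 6.91 RPKM in heart, from 2646 reads, and 6.77 RPKM in bone marrow, from 2157 reads. Its fold of 1.02 had a counting interval of 0.964 to 1.08 as deposited, which holds 1. That reading depends on the scaling, since each of the 4 scalings tried put the interval above 1, from 1.01 to 1.14 with the trimmed mean of log ratios set to 0 up to 1.07 to 1.20 with the median ratio set to 1.

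**Figure D2:**
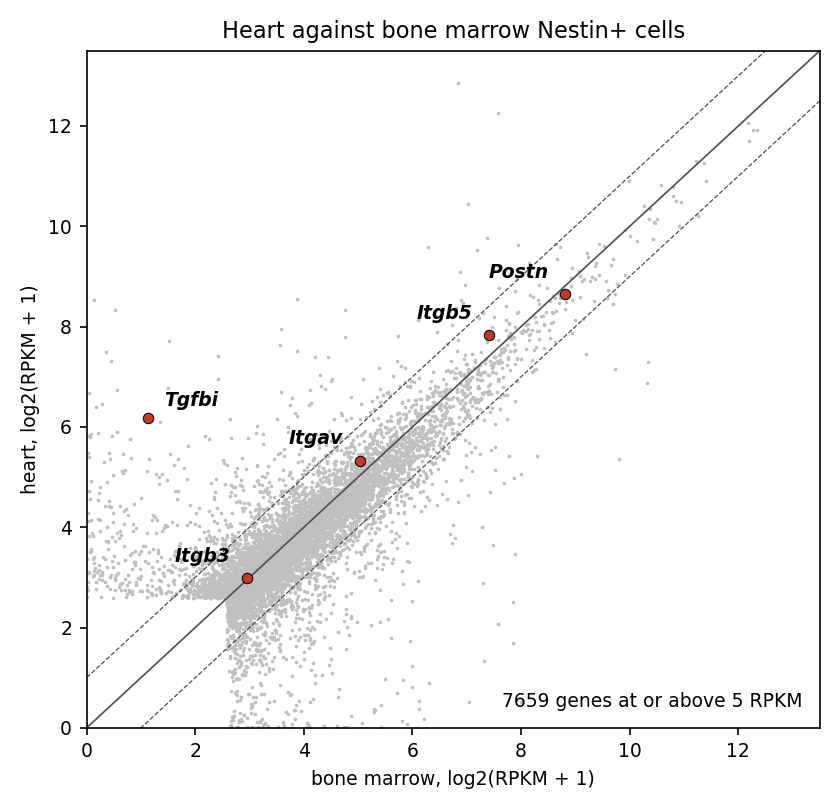
Each grey point is 1 of the 7659 genes that reached 5 RPKM in heart or bone marrow, with log2(RPKM + 1) in bone marrow on the x axis and in heart on the y axis; the solid line marks equal levels and the dashed lines 2-fold. Tgfbi lies far above the upper dashed line, and Postn, Itgav, Itgb3 and Itgb5 lie between the dashed lines.

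The order of levels was set within each library, where scaling between libraries has no part. In heart it ran Postn, Itgb5, Tgfbi, Itgav, Itgb3, with steps of 1.77-, 3.17-, 1.83- and 5.63-fold between neighbours. In bone marrow it ran Postn, Itgb5, Itgav, Itgb3, Tgfbi, with steps of 2.66-, 5.32-, 4.69- and 5.76-fold. Tgfbi took place 3 in heart and last in bone marrow, and the other 4 kept their order. No neighbours in either order had overlapping counting intervals, but without replicates the spread between cultures is unknown. Tgfbi made up 15.1% of the Postn and Tgfbi sum in heart and 0.262% in bone marrow. The sum itself, per base of gene model, was 471 RPKM in heart and 449 RPKM in bone marrow. As deposited, which library had the higher sum depends on the length used, as given below.

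The gap between Postn and Tgfbi depends on the length used. The Postn gene model counts 8702 bases, against 3205 for its longest protein-coding transcript, while the Tgfbi model of 2678 bases is close to its longest protein-coding transcript of 2714. Per base of model, Tgfbi stood at 0.178 of Postn in heart and 0.00262 in bone marrow. Per base of the longest protein-coding transcript, Tgfbi stood at 0.0646 of Postn in heart and 0.000953 in bone marrow. With that length the RPKM of Postn was 1085 in heart and 1217 in bone marrow, and that of Tgfbi 70.1 and 1.16. The sum of Postn and Tgfbi was then higher in bone marrow, not in heart, as deposited. The 4 scalings between libraries were not applied to these sums and could change which is higher. The order of the 5 genes was the same with either length in both libraries, but the steps were not. Per base of the longest protein-coding transcript, the steps in heart were 4.70-, 3.30-, 1.18- and 8.40-fold, so that Tgfbi stood closer to Itgav, and those in bone marrow 7.04-, 3.58-, 7.00- and 5.95-fold.

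Among the beta chains that can pair with alpha-v, the RNA was mostly beta-1 and beta-5. Itgb1, which encodes the beta-1 chain shared by many integrins, stood at 362 RPKM in heart and 369 RPKM in bone marrow. Itgb5 made up 37.7% of the summed RPKM of the 5 beta chains in heart and 30.9% in bone marrow. Itgb3 made up 1.16% in heart and 1.24% in bone marrow. The level of Itgb3 was 0.0307 of Itgb5 in heart (counting interval 0.0295 to 0.0319) and 0.0401 in bone marrow (0.0384 to 0.0419). Itgb5 was thus 32.6-fold above Itgb3 in heart and 24.9-fold above it in bone marrow. Against the alpha-v chain, Itgb5 stood at 5.80 times Itgav in heart and 5.32 times in bone marrow, and Itgb3 at 0.178 of Itgav in heart and 0.213 in bone marrow. RNA ratios do not give the amounts of the assembled receptors.

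The remaining beta chains were low. Itgb8, which encodes a chain known for activating latent TGF-beta, stood at 3.64 RPKM in heart and 0.991 RPKM in bone marrow, under the floor of 5. Itgb6, an epithelial chain, had 2 reads in each library. Of the alpha chains that bind RGD, Itga5 of the fibronectin receptor stood at 49.7 RPKM in heart and 37.2 RPKM in bone marrow. Per base of gene model this was above Itgav in both. Per base of its longest protein-coding transcript Itgav stood at 59.3 RPKM in heart and 48.3 RPKM in bone marrow. Itga5 was not computed with that length, so the order of these 2 chains is not settled. Itga8, a mesenchymal chain that binds nephronectin, stood at 3.25 RPKM in heart and 0.475 RPKM in bone marrow. Itga2b, the platelet partner of beta-3, was below 1 RPKM in both libraries. Of the 5 beta chains 3 reached 5 RPKM, and of the 4 alpha chains 2, and 0 of these met the 2-fold rule. Over all genes 17.1% met it in either direction, so this count does not set the chains apart. Itgb8 and Itga8, 3.68- and 6.84-fold higher in heart, were under the floor and could not be counted.

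**Figure D3:**
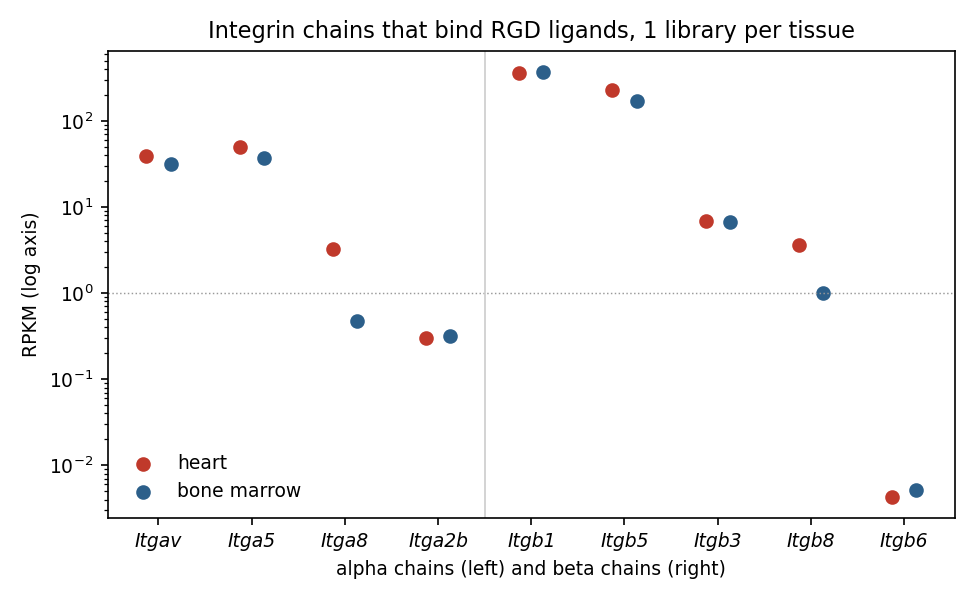
RPKM (log axis) of the 4 alpha and 5 beta chains of RGD-binding integrins in heart (red) and bone marrow (blue), with a dotted line at 1 RPKM. Itgb5 sits far above Itgb3 in both libraries, and Itgb8 and Itga8 are higher in heart at low levels.

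The remaining FAS1 family genes, Stab1 and Stab2, which encode scavenger receptors of endothelium and macrophages, were under 0.03 RPKM in both libraries, with Stab2 listed at 0 in heart. The summed RPKM of the family was 471 in heart and 449 in bone marrow, the same as that of Postn and Tgfbi alone to the digits given. As for that pair, which library had the higher sum as deposited depends on the length used.

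Other ligands of alpha-v integrins differed in both directions. Of 18 on the list, 14 reached 5 RPKM, and 3 were higher in heart, 8 higher in bone marrow and 3 neither. Over all 7659 genes that reached it, 7.56% were higher in heart and 9.51% in bone marrow. The list was chosen with earlier results known. The median log2 ratio of the 16 at or above 1 RPKM was -0.74, against -0.11 over all 11354 genes at that level, and that of the 14 counted was -1.40, against -0.15 over all 7659. Spp1, which encodes the RGD protein osteopontin, stood at 7438 RPKM in heart and 113 RPKM in bone marrow. The other 2 higher in heart were Fbn1, the fibrillin of elastic microfibrils, at 279 RPKM in heart and 67.5 RPKM in bone marrow, and Tnc, the matrix protein tenascin-C, at 53.4 RPKM in heart and 24.6 RPKM in bone marrow. Fbn1 was named after its value was seen. Thbs1, which encodes thrombospondin-1, stood at 117 RPKM in heart and 1269 RPKM in bone marrow. The CCN family genes Ctgf and Cyr61 had log2 ratios of -2.58 and -2.93, and Ltbp1, a binding protein of latent TGF-beta, -2.97. Ibsp, which encodes bone sialoprotein, was listed at 0 in heart and stood at 12.9 RPKM in bone marrow. Fn1, which encodes fibronectin, stood at 1129 RPKM in heart and 1315 RPKM in bone marrow and met the rule in neither direction, like Postn.

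Among these 18 ligands, Postn and Tgfbi, 20 genes in all, Postn was number 3 by level in heart and number 4 in bone marrow. Tgfbi was number 7 in heart and number 17 in bone marrow. Spp1 made up 76.0% of the summed ligand RPKM in heart and 2.44% in bone marrow. Postn made up 4.08% in heart and 9.68% in bone marrow. These places and shares are per base of gene model, and the Postn model of 8702 bases is longer than its longest protein-coding transcript of 3205. The ligand sum was 9784 RPKM in heart and 4629 RPKM in bone marrow, so the Postn share moves with Spp1 as well as with Postn.

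**Figure D4:**
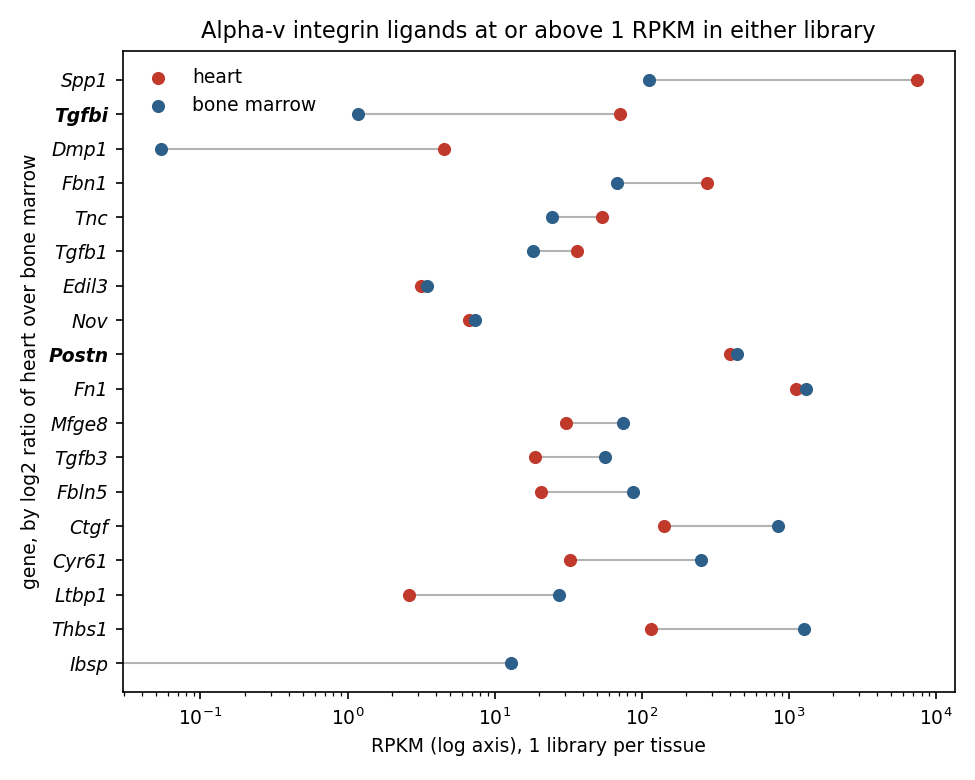
RPKM (log axis) of Postn, Tgfbi and the other alpha-v ligands at or above 1 RPKM in either library, heart in red and bone marrow in blue, sorted by log2 ratio with the highest at the top. Spp1 and Tgfbi head the order, Postn and Fn1 have nearly equal points, and Ibsp has no heart point because it is listed at 0 there.

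Most matrix partners of periostin and Tgfbi lay within 2-fold, as did most of all genes. Of 13 genes, 3 were higher in heart, 1 higher in bone marrow and 9 on neither side, with a median log2 ratio of 0.32. Over all 7659 genes that reached 5 RPKM, 7.56% were higher in heart and 9.51% in bone marrow, with a median of -0.15. Dcn, which encodes the small proteoglycan decorin that binds Tgfbi, stood at 247 RPKM in heart and 11.0 RPKM in bone marrow. Col3a1, which encodes type III collagen, stood at 1388 RPKM in heart and 129 RPKM in bone marrow, and Tnc was the other gene. Lox, the collagen crosslinking enzyme lysyl oxidase, whose activation periostin aids, stood at 156 RPKM in heart and 1288 RPKM in bone marrow. Bgn, which encodes biglycan, and Col6a1, a chain of type VI collagen, had log2 ratios of 0.92 and 0.60 and met the rule in neither direction as deposited. With 3 of the 4 scalings Bgn met it toward heart, at 1.07 with the median ratio set to 1.

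Genes that carry the signal inward from integrins had lower levels in heart where they met the rule, with 1 exception. Of 28 adaptors and adhesion kinases, 23 reached 5 RPKM, and 1 was higher in heart, 5 higher in bone marrow and 17 neither. Over all genes that reached it, 7.56% were higher in heart and 9.51% in bone marrow. The median log2 ratio of the 26 adaptor and kinase genes at or above 1 RPKM was -0.31, against -0.11 over all genes at that level. With the median ratio set to 1, the median of the 26 was -0.17. Lims2, an adaptor of the integrin-linked kinase complex, stood at 0.384 RPKM in heart and 7.25 RPKM in bone marrow. Actn1, which encodes the actin crosslinker alpha-actinin-1, had a log2 ratio of -1.57, the talin gene Tln2 -1.47, the vinculin gene Vcl -1.19 and the filamin gene Flna -1.01. Flna fell short of the rule under each of the 4 scalings, at -0.86 with the median ratio set to 1. Tns1, which encodes tensin-1, was the gene higher in heart, at 23.2 RPKM in heart and 8.49 RPKM in bone marrow. Of 10 membrane partners of alpha-v integrins, 8 reached 5 RPKM and 0 met the rule, with a median log2 ratio of -0.08 that was 0.07 with the median ratio set to 1. Plaur, the urokinase receptor gene, was just short of it at -0.99. Of 9 integrin endocytosis genes, 7 reached 5 RPKM and 0 met the rule, with a median of -0.22 that was -0.09 with the median ratio set to 1. The clathrin adaptor gene Dab2 missed it narrowly with a log2 ratio of 0.999, at 20.3 RPKM in heart and 9.67 RPKM in bone marrow, and met it under each of the 4 scalings. Over all genes 17.1% met the rule in either direction, so a count of 0 among 8 or 7 genes does not set these lists apart.

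The TGF-beta pathway, which induces Postn and Tgfbi, differed both ways in its ligands and receptors. Of 12 ligands, receptors and Smads, 11 reached 5 RPKM, and 3 were higher in heart, 3 higher in bone marrow and 5 on neither side. The median log2 ratio was -0.16 over these 11 and 0.18 over all 12, which adds Acvrl1, a receptor gene at 2.75 RPKM in heart and 1.25 RPKM in bone marrow, so the sign of the median rests on the floor. The 3 in heart were receptor genes: Eng, which encodes the accessory receptor endoglin, at 33.9 RPKM in heart and 0.576 RPKM in bone marrow, Tgfbr1 with a log2 ratio of 1.62 and Tgfbr3 with 1.52. The 3 in bone marrow were the ligand genes Tgfb2 at a log2 ratio of -2.15 and Tgfb3 at -1.54, and the inhibitory Smad gene Smad7 with -1.61. The ligand gene Tgfb1 leaned the other way, at 36.1 RPKM in heart and 18.3 RPKM in bone marrow. Its log2 ratio of 0.94 fell just short of the rule as deposited. Under every scaling tried Tgfb1 met the rule toward heart, with log2 ratios from 1.01 to 1.08. Of 9 genes that store and activate TGF-beta, 6 reached 5 RPKM, and 3 were higher in heart, 2 higher in bone marrow and 1 on neither side, with a median of 0.59. Over the 7 at or above 1 RPKM the median was 1.22, the value of Itgb8, which is under the floor of 5, and 0.53 with a pseudocount of 5. Ltbp4 and Ltbp3, binding proteins of latent TGF-beta, had log2 ratios of 2.21 and 1.64, and Lrrc32, which encodes the latent TGF-beta anchor GARP, 1.44. Thbs1 and Ltbp1 were the 2 in bone marrow. Over all 7659 genes that reached 5 RPKM, 7.56% were higher in heart and 9.51% in bone marrow, with a median of -0.15. Over all 11354 genes at or above 1 RPKM in either library the median was -0.11.

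Of 15 TGF-beta induced genes other than Postn and Tgfbi, all reached 5 RPKM, and 0 were higher in heart, 6 higher in bone marrow and 9 on neither side, with a median log2 ratio of -0.59. The shares over all genes were 7.56% toward heart and 9.51% toward bone marrow, so the count of 0 in heart does not set a list of 15 apart. Those in bone marrow included the smooth muscle genes Acta2 and Tagln, Ctgf, Smad7 and the cell cycle inhibitor gene Cdkn1a, with log2 ratios of -4.44, -2.81, -2.58, -1.61 and -1.16. Tgfbi at 5.05 was above each of these 15 genes and Postn at -0.17 lay within their range. Of 11 activated fibroblast genes, 8 reached 5 RPKM, and 2 were higher in heart, 4 higher in bone marrow and 2 on neither side, with a median of -0.99. Over the 10 at or above 1 RPKM it was -1.66, and this value was -0.57 with a pseudocount of 5 and -2.66 with a pseudocount of 0.1. Fap, which encodes fibroblast activation protein, stood at 6.76 RPKM in heart and 0.219 RPKM in bone marrow, and Thbs4, which encodes thrombospondin-4, at 6.55 RPKM in heart and 0.0113 RPKM in bone marrow. Acta2, Tagln, Lox and Ddah1 were the 4 in bone marrow, with Ddah1, an enzyme that degrades methylarginines, at -2.15.

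**Figure D5:**
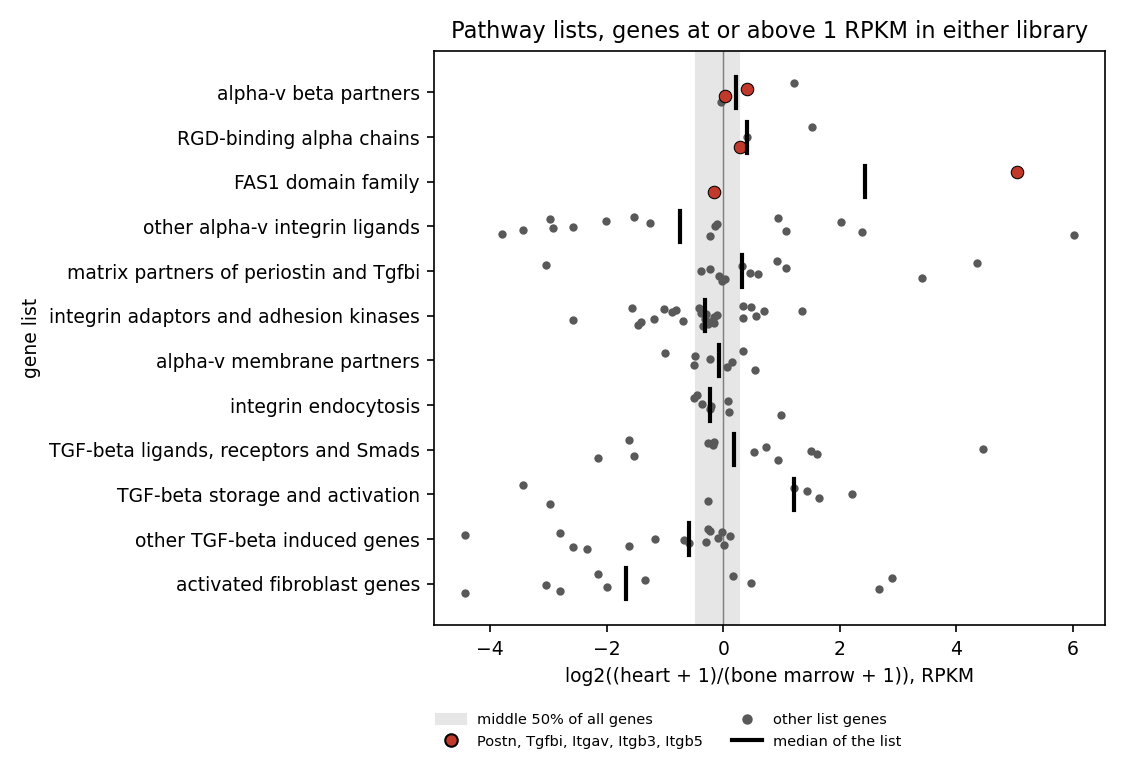
Log2((heart + 1)/(bone marrow + 1)) of RPKM for the genes of each list at or above 1 RPKM in either library; positive values are higher in heart. Red points are Postn, Tgfbi, Itgav, Itgb3 and Itgb5, black bars list medians, and the grey band the middle 50% of all 11354 genes at that level, from -0.47 to 0.28.

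Over the 117 different genes of these lists, without Postn, Tgfbi, Itgav, Itgb3 and Itgb5, 93 met the floor of 5 RPKM, of which 15.1% were called toward heart and 22.6% toward bone marrow. Both shares were above the 7.56% and 9.51% over all genes, for lists chosen with earlier results known. Setting the median ratio to 1 gave 17 list genes higher in heart and 20 in bone marrow, against 14 and 21 as deposited. The calls gained were Bgn, Dab2 and Tgfb1, which encodes TGF-beta 1, and the call lost was Flna. That scaling gave 667 of all genes higher in heart and 558 in bone marrow, against 579 and 728 as deposited.

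Genes nearest to each of the 5 were taken by distance in log2(RPKM + 1) over the 2 libraries, 2 per gene, as a description of level and ratio only. Nearest to Tgfbi were Epha3, an ephrin receptor gene, at 67.3 RPKM in heart and 1.53 RPKM in bone marrow, and Serpina3g, a serine protease inhibitor gene, at 53.5 RPKM in heart and 0.730 RPKM in bone marrow. Serpina3g has close relatives that may share reads. Nearest to Postn were the mitochondrial gene mt-Atp8, at 414 RPKM in heart and 463 RPKM in bone marrow, and Laptm4a, at 396 RPKM in heart and 422 RPKM in bone marrow. Nearest to Itgb5 were Lrp1 and Ctnnb1, to Itgav Snx4 and Ddx6, and to Itgb3 Crebbp and Ppt2. The distances were 0.23 and 0.52 log2 units for Tgfbi and at most 0.18 for the others, so Tgfbi had the emptiest surroundings.

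The cell identity given by the labels was read against marker lists. The 10 mesenchymal stromal markers summed to 3488 RPKM in heart and 3869 RPKM in bone marrow, but several differed between the libraries. Of the 9 that reached 5 RPKM, 4 were higher in heart, 0 higher in bone marrow and 5 on neither side. Over all genes 7.56% were higher in heart and 9.51% in bone marrow. Among the 5 on neither side, Vim and Cd44 leaned toward bone marrow, with log2 ratios of -0.88 and -0.80. Thy1, which encodes the surface protein CD90, stood at 16.7 RPKM in heart and 0.0603 RPKM in bone marrow, from 2325 reads in heart and 7 in bone marrow. Eng, which encodes CD105, had the values given above, Pdgfra, a growth factor receptor gene, stood at 27.6 RPKM in heart and 11.6 RPKM in bone marrow, and Nes itself at 8.74 RPKM in heart and 1.20 RPKM in bone marrow. Nt5e, which encodes CD73, stood at 0.225 RPKM in heart and 1.59 RPKM in bone marrow. Thy1 and Eng thus moved the same way as Tgfbi, and the part of such a difference between the cultures in the Tgfbi result was not tested. Macrophages, osteoclasts and platelets also express Tgfbi, Itgav or Itgb3. Of 11 macrophage markers, 0 reached 5 RPKM, and their summed level was 11.1 RPKM in heart and 5.62 RPKM in bone marrow. The defining markers Ptprc and Adgre1 were listed at 0 in heart and under 0.01 RPKM in bone marrow. The list sum moved toward heart through Cd53, at 4.80 RPKM in heart and 1.03 RPKM in bone marrow, and Itgb2, at 1.51 RPKM in heart and 0.206 RPKM in bone marrow. Of 9 platelet markers 8 were below 1 RPKM in both libraries, with Pf4, Ppbp and Gp9 listed at 0, and the osteoclast genes Ocstamp and Dcstamp were listed at 0 in both. Ctsk of the osteoclast list, which stromal cells also express, stood at 451 RPKM in heart and 125 RPKM in bone marrow. The other osteoclast marker at or above 5 RPKM, the transcription factor gene Nfatc1, went the other way, at 1.31 RPKM in heart and 6.74 RPKM in bone marrow. The 8 osteoclast markers summed to 453 RPKM in heart and 132 RPKM in bone marrow, nearly all of it Ctsk. Endothelial markers summed to 0.961 RPKM in heart and 1.38 RPKM in bone marrow, cardiomyocyte markers to 0.785 RPKM in heart and 0.917 RPKM in bone marrow, and epithelial markers to 0.142 RPKM in heart and 1.85 RPKM in bone marrow. Single endothelial markers went opposite ways. Vwf stood at 0.00768 RPKM in heart and 1.13 RPKM in bone marrow, and Emcn at 0.690 RPKM in heart and 0.0137 RPKM in bone marrow. The epithelial sum in bone marrow was mostly Krt19 at 0.908 RPKM and Cdh1 at 0.623 RPKM. The part of other cell types in the Tgfbi difference was not tested.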

How the data were processed

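RNA sequencing was done on heart and bone marrow Nestin+ cells, 1 library each from 1 ug of total RNA, per the labels' protocols. The deposited values are RPKM, which the authors computed per gene model and library, per the file headers. The submitters' processing notes name mm8 as the build, but 45149 of 49585 rows (91.1%) have the position of a GENCODE M21 gene on GRCm38, and coordinates are read on GRCm38. Whether counting used strand, and with which aligner and counter, is not given in the sources used here. No annotated gene in M21 overlaps Postn, Tgfbi, Itgb3 or Itgb5, and the 2 that overlap Itgav on the opposite strand were under 0.14 RPKM in both libraries.

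Totals of 64872683 reads for heart and 53999963 for bone marrow were recovered from the steps of RPKM times model length. Of 14255 rows above 0 in both libraries and with a known length, 12292 (86.2%) came out whole in both, within 0.02 reads. For Tgfbi and Itgb5, whose models differ from M21, the length was solved as the only one within 1.5-fold of the longest protein-coding transcript that gave whole reads in both libraries, within 0.001 reads. On 300 genes of known length this gave 1 answer for 249, all right. Fold intervals are exact conditional (Clopper-Pearson) at 95%, and level intervals exact Poisson. The reads carry no molecular identifiers and may repeat a molecule, so these intervals hold counting error alone.

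The log2 ratio adds a pseudocount of 1 RPKM, so it understates differences of low genes. No p-value was computed. The 5 genes, the lists and the rules were chosen with earlier results of these data known. Named genes are all 5 genes, every chain and FAS1 gene listed, up to 6 per list at or above 5 RPKM with the largest log2 ratio in size, and the 2 nearest per gene. Fbn1, Fn1, Acvrl1, Tgfb1, the marker genes singled out and the chromosomal neighbours were named after their values were seen. A gene that the rule takes is not reported here.

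Alternatives were other pseudocounts (0.1, 5), other floors (none, 1, 20), a threshold of 4-fold, summing the rows of a symbol and 4 scalings. Transcript length as the divisor was chosen after seeing the data. Versions were matplotlib 3.10.9, scipy 1.17.1, pandas 2.3.3, numpy 2.4.6 and Python 3.11.15. The read recovery and the rule were tested on simulated data that held counting error only. Promoter sequences are from RefSeq, GRCm38.p6.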

Additional observations from a re-analysis of the deposited data

How the results depend on the processing

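Tgfbi remained the 1 of the 5 genes that met the rule under each pseudocount, scaling, floor, summed-row and 4-fold setting tried. Its log2 ratio was 5.80 with a pseudocount of 0.1 and 3.62 with a pseudocount of 5. Itgav had 0.26 with a pseudocount of 5. With the median ratio set to 1, the log2 ratios of Postn, Itgav, Itgb3 and Itgb5 were -0.017, 0.43, 0.16 and 0.56. With upper quartiles set equal, Postn had -0.079, Itgav 0.37 and Itgb5 0.50. With the trimmed mean of log ratios set to 0, Postn had -0.094, Itgav 0.36 and Itgb5 0.49. With the RPKM sum set equal, Postn had -0.073, Itgav 0.38 and Itgb5 0.51. The shifts under the 4 scalings follow from the scaling factor, which added 0.15, 0.09, 0.07 and 0.09 to log2 ratios of abundant genes.

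With a pseudocount of 1 added, Itgb3 over Itgb5 was 0.0349 in heart and 0.0458 in bone marrow, Itgb3 over Itgav 0.198 in heart and 0.237 in bone marrow, Itgb5 over Itgav 5.68 in heart and 5.19 in bone marrow, and Tgfbi over Postn 0.00484 in bone marrow. Per base of the longest protein-coding transcript, Tgfbi over Postn was 0.0646 in heart and 0.000953 in bone marrow, Itgb3 over Itgav 0.119 in heart and 0.143 in bone marrow, and Itgb5 over Itgav 3.90 in heart and 3.58 in bone marrow. The sum of Postn and Tgfbi over that of Itgb3 and Itgb5, 2.02 in heart and 2.56 in bone marrow per base of model, was then 4.85 in heart and 6.78 in bone marrow.

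Of all genes, 383 were higher in heart and 424 in bone marrow with a pseudocount of 5, 263 and 315 with a floor of 20, and 257 and 229 at 4-fold. With a floor of 1 or none, 883 were higher in heart and 1052 in bone marrow. Heart genes were 44.3% of those called as deposited, 54.4% with the median ratio set to 1 and 52.9% at 4-fold. Of list genes, 9 were higher in heart and 15 in bone marrow with a floor of 20, and 8 in heart and 13 in bone marrow at 4-fold. Of 84 list medians under other settings 3 changed sign, all for alpha-v membrane partners, to 0.07 with the median ratio set to 1 and 0.01 with the upper quartile or RPKM sum set equal. Another 11 kept their sign but moved by over 1.5 times, 4 of them under a pseudocount of 0.1 or 5 and the rest under a scaling.

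No paired analysis was possible because each tissue has 1 library. The bone marrow level of Tgfbi rests on 170 reads, and replicate spread is unknown for every value.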

Other observations

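The chromosomal neighbours of the 5 genes were read after the data were seen, as the 2 nearest protein-coding genes on each side. Of these 20 neighbours, 8 reached 5 RPKM, and the rule called 1 toward heart and 1 toward bone marrow. The shares over all genes were 7.56% and 9.51%, and counts of 1 among 8 genes do not set the neighbours apart. Around Tgfbi, Lect2 was listed at 0 in both libraries, Fbxl21 was at 0.132 RPKM in heart and 0.120 RPKM in bone marrow, and Trpc7 was under 0.01 RPKM in both. Smad5, which encodes a transducer of BMP signals and lies 63.7 kb after Tgfbi, stood at 15.2 RPKM in heart and 11.6 RPKM in bone marrow. Smad5 was the only neighbour of Tgfbi to reach 5 RPKM, and it did not meet the rule. The other neighbours of Tgfbi were too low to be called. The neighbour higher in heart was Fam171b, 5.72 kb after Itgav, at 23.2 RPKM in heart and 4.09 RPKM in bone marrow. The neighbour higher in bone marrow was Umps, which encodes an enzyme of pyrimidine synthesis and lies 5.63 kb after Itgb5, at 6.41 RPKM in heart and 14.2 RPKM in bone marrow. Its log2 ratio of -1.03 met the rule narrowly and fell short of it under each of the 4 scalings, from -0.96 to -0.89. Trpc4, 42.6 kb before Postn, was under 0.04 RPKM in heart and listed at 0 in bone marrow.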
